A study of Mus musculus with 2 samples.

Results

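ID and E protein genes were followed in single LSK cells of mouse bone marrow. The set comprised 6 genes, the ID genes Id1, Id2 and Id3 and the E protein genes Tcf3, Tcf4 and Tcf12, chosen by name among the 31053 genes of the deposited matrix, and all 6 were present. LSK cells lack mature lineage markers and carry Sca-1 and c-Kit, a fraction that holds the haematopoietic stem cells and early multipotent progenitors. They were sorted from C57BL/6JRj mice of 3 to 5 months (LSK_young) and of 22 to 28 months (LSK_old), untreated as far as the labels say, with 4 mice per age group according to the methods of the study. Each age group was 1 library, in which the mice cannot be told apart, and each cell barcode ends in suffix 1 or 2 for its library. No label pairs a suffix with an age, so no comparison of ages was made, and suffixes 1 and 2 are given throughout as 2 libraries of unassigned age.

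E proteins are helix-loop-helix transcription factors that bind, as pairs, to the E-box, the DNA motif CANNTG. Tcf3 encodes E2A (its forms E12 and E47), Tcf4 encodes E2-2, best known from plasmacytoid dendritic cells, and Tcf12 encodes HEB; none of them belongs to the TCF family of WNT signalling, despite the symbols. ID proteins have the helix-loop-helix but lack the basic region that contacts DNA, so that an E protein paired with an ID protein is held off its sites. In blood formation, E proteins are known for lymphoid specification and for restraint of stem cell cycling, Id1 as a target of BMP and TGF-beta signalling, and Id2 for innate lymphoid and dendritic cells.

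CITE-Seq reads, from each droplet, both mRNA and DNA barcodes coupled to antibodies on the cell surface, and molecular identifiers (UMIs) let each original molecule be counted once. The matrix held 1696 cells of suffix 1 and 2992 of suffix 2, and 1524 and 2544 cells with under 10% mitochondrial UMIs and over 1500 genes were kept. Their median depth was 15024 and 14766 UMIs. No barcode was shared between the libraries. Of the kept cells, 1497 and 2489 had tag values, and these were divided within each suffix at the 75th percentile of the CD150 tag and the 25th percentile of the CD48 tag into 4 gates. CD150 marks stem cells in this fraction and CD48 marks progenitors. The CD150-high CD48-low gate held 172 and 383 cells, the CD150-low CD48-low gate 204 and 250, the CD150-high CD48-high gate 209 and 241, and the CD150-low CD48-high gate 912 and 1615. The same percentile lay at different tag counts in the libraries (40 and 407 tags for CD150, 224 and 42 for CD48), so a gate is a rank within its library and not a fixed surface level. Median depth ran from 11203 to 19922 UMIs over gates and suffixes. Of the stem cell markers, Fgd5 had 27.1 and 36.1 UMIs per 1000000 UMIs (CPM) in the CD150-high CD48-low gate of suffixes 1 and 2 and 5.84 and 6.84 CPM in the CD150-low CD48-high gate. Slamf1, the gene of CD150, had 16.9 and 64.2 against 0.397 and 2.53 CPM, Procr 115 and 246 against 37.7 and 57.5 CPM, Mecom 121 and 166 against 44.8 and 42.8 CPM, and Hlf 432 and 322 against 365 and 179 CPM. The summed level of the progenitor markers Cd34, Cd48 and Flt3 was 216 and 43.9 against 943 and 758 CPM. Cd48 encodes the tagged protein CD48. The LSK markers Ly6a and Kit summed to 375 and 494 CPM over all kept cells.

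Levels are CPM of the UMIs summed over the cells of a group, relative to all UMIs of the same cells, with exact Poisson 95% intervals. Ratios have exact conditional binomial intervals and shares of cells Clopper-Pearson intervals. All of them cover counting error only, since the cells of a library share their source and are not replicates, and no test was possible with 1 library per age. A gene was counted as higher or lower where its ratio was at least 1.5-fold in the same direction in both suffixes, among the 10813 genes with at least 200 UMIs in the kept cells. Of the 6 members, 4 met this minimum. Tcf4 had 12218 UMIs, Tcf3 5780, Tcf12 4740 and Id2 1257, whereas Id1, with 155 UMIs, and Id3, with 15, did not, and are given by their values only. The fourth ID gene, Id4, had 10 UMIs. A library read from the 3′ end counts molecules near the end of the transcript, and the splice forms of E2A (E12 and E47) were not separated.

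On GRCm38, the build named in the processing notes, the positions of 5 members were taken from the GENCODE annotation of that build. Id1 is at chr2:152736251-152737410 on the plus strand, Id2 at chr12:25093799-25097140 on the minus strand, Id3 at chr4:136143497-136145755 on the plus strand, Tcf3 at chr10:80409514-80433647 on the minus strand and Tcf12 at chr9:71842688-72111871 on the minus strand. Tcf12 overlaps other annotated genes of the same strand (among them A430027C01Rik), so its counts are less certain than those of Id1, Id2, Id3 and Tcf3, which overlap no other annotated gene. Upstream sequences are shown for the members with at least 200 UMIs that have a RefSeq promoter window (GRCm38.p6) reaching outside their exons, because the E-box is the motif that E proteins bind. The windows span the 250 bases before a RefSeq start (position -1 is the base before it), the stretch printed stops where the first annotated exon begins, each is given 5′ to 3′ on the strand of the gene, and capitals mark CANNTG, which reads the same on both strands.
Tcf3, chr10:80433648-80433885, positions -250 to -13: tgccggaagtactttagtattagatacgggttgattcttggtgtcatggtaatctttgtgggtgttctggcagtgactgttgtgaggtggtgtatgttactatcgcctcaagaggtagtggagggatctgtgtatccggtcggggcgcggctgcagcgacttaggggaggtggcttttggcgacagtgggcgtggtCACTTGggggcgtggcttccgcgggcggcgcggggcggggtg
Tcf12, chr9:72111872-72112069, positions -250 to -53: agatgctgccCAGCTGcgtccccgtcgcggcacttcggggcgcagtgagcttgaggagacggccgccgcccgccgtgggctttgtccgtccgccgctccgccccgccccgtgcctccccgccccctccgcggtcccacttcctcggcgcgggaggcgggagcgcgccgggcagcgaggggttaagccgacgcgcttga
Id2, chr12:25096254-25096342, positions -250 to -162, inside an intron of a longer Id2 transcript: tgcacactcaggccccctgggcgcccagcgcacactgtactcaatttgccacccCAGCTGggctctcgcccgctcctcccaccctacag
Each of these 3 windows held 1 E-box over its 250 bases, at position -54 for Tcf3, -240 for Tcf12 and -196 for Id2. The window of Id3, which lies within annotated exons, held none. This is an ordinary number, since 66.2% of the 32851 windows of that length held CANNTG, with a median of 1 per window. The form CAGCTG, seen at Tcf12 and Id2, was in 13% of windows, and CACCTG, found in none of the windows of the members, in 17.2%. A match of letters is a description and does not show that a factor binds there.

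Tcf3 had its lowest level in the CD150-high CD48-low gate and its highest in the CD150-low CD48-high gate, in both libraries. In suffix 1 its level was 67.5 CPM (57.2 to 79.1) in the CD150-high CD48-low gate, 76.8 in the CD150-low CD48-low gate, 81.4 in the CD150-high CD48-high gate and 93.4 (89 to 98) in the CD150-low CD48-high gate. In suffix 2 the levels in the same order of gates were 51.5 (45.5 to 58), 57, 67.5 and 84.9 CPM (81.6 to 88.2). The order of the 4 gates was thus the same in both libraries, with intervals that overlapped between the 2 CD48-low gates and did not overlap between the first and the last gate. The ratio of the CD150-high CD48-low to the CD150-low CD48-high gate was 0.722 (0.608 to 0.853) in suffix 1 and 0.606 (0.533 to 0.687) in suffix 2, past 1.5-fold in suffix 2 only. Cells with a UMI of the proliferation genes Mki67, Top2a, Ube2c or Birc5 made up 24.4% and 10.7% of the first gate and 54.1% and 53% of the second. Without such cells, the ratios of Tcf3 were 0.736 and 0.718.

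Tcf4 was also highest in the CD150-low CD48-high gate, at 206 CPM (199 to 213) in suffix 1 and 168 CPM (164 to 173) in suffix 2. In the CD150-high CD48-low gate it had 152 (137 to 169) and 149 CPM (138 to 159), in the CD150-low CD48-low gate 169 (153 to 185) and 138 CPM (124 to 152), and in the CD150-high CD48-high gate 144 (133 to 155) and 141 CPM (130 to 153). The 3 other gates had overlapping intervals within each library. The ratio of the CD150-high CD48-low to the CD150-low CD48-high gate was 0.739 (0.66 to 0.826) and 0.883 (0.818 to 0.952), and that of the CD150-high CD48-high gate was 0.697 (0.641 to 0.757) and 0.839 (0.771 to 0.911).

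Tcf12 ran the other way, with its lowest level in the CD150-low CD48-high gate, though this order was not kept next to the CD150-low CD48-low gate under every alternative. Its levels there were 63.2 CPM (59.6 to 67) in suffix 1 and 62.9 CPM (60.1 to 65.8) in suffix 2, close to each other between libraries. In the CD150-high CD48-low gate they were 78.6 (67.4 to 91.1) and 73.5 CPM (66.3 to 81.2), in the CD150-low CD48-low gate 68.1 and 66.3 CPM, and in the CD150-high CD48-high gate 73.9 and 79.9 CPM. Relative to the CD150-low CD48-high gate, the CD150-low CD48-low gate of suffix 1 was at 0.628 with gates set over both suffixes together (11 UMIs in 20 cells) and 0.836 under 5% mitochondrial UMIs, and that of suffix 2 at 0.962 with cells thinned and 0.979 with gates at the 90th and 10th percentiles. The ratio of the CD150-high CD48-low to the CD150-low CD48-high gate was 1.24 (1.05 to 1.46) and 1.17 (1.04 to 1.3). Both intervals lay above 1 while those of Tcf3 and Tcf4 lay below it, and the differences of all 3 E protein genes were under 1.5-fold in at least 1 library.

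**Figure D1:**
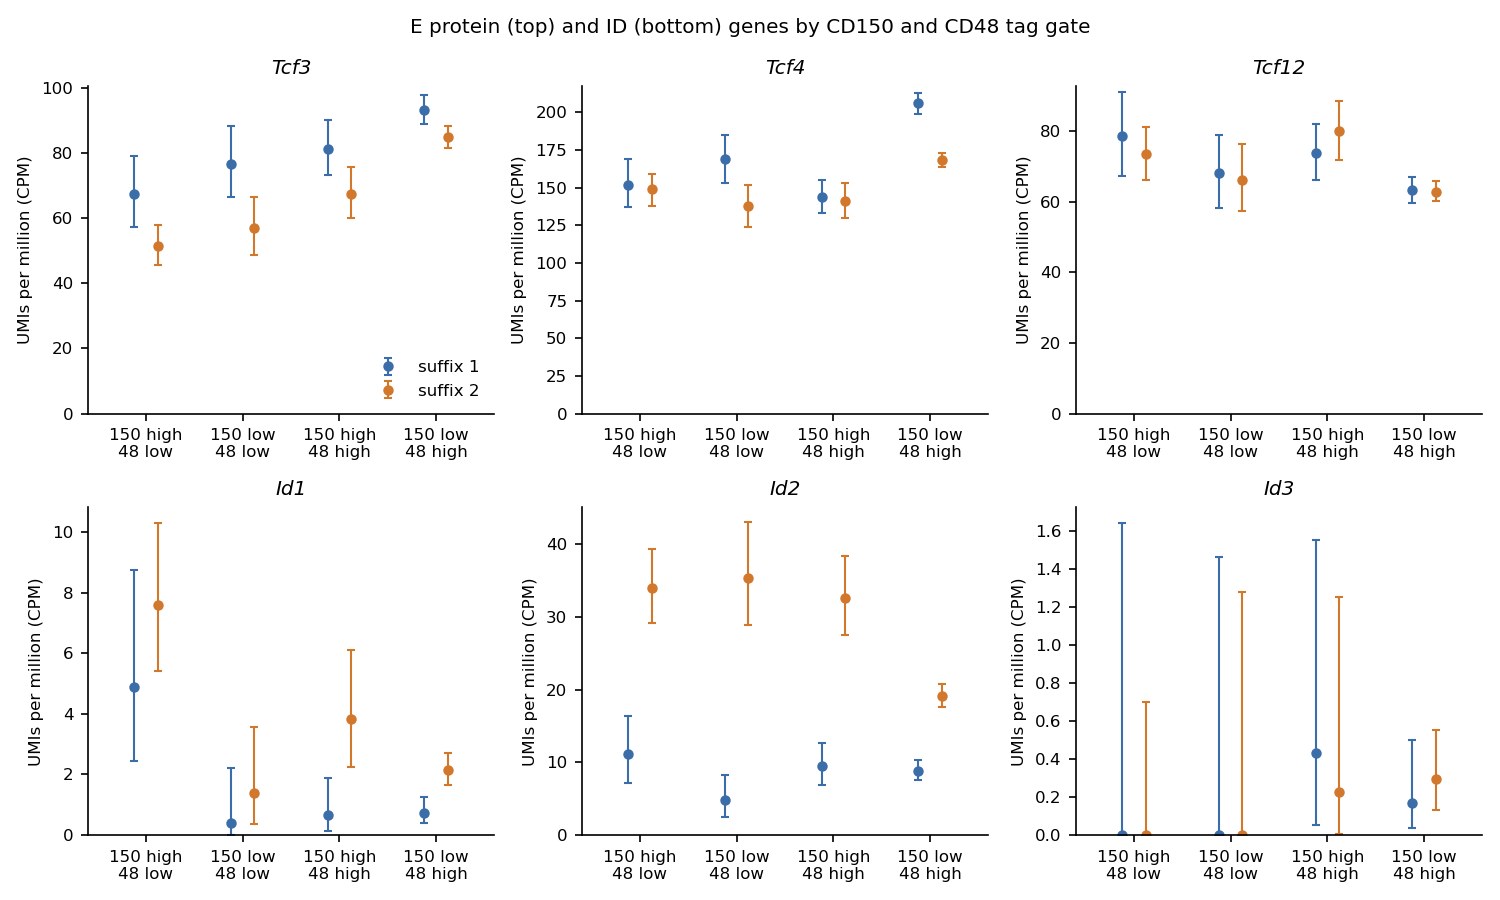
Level of each of the 6 members (y axis, CPM with exact Poisson 95% intervals; each panel has its own scale from 0) in the 4 tag gates (x axis, 150 and 48 for the CD150 and CD48 tags), in suffix 1 (blue) and suffix 2 (orange). Tcf3 rises from 67.5 and 51.5 CPM on the left to 93.4 and 84.9 CPM on the right, Tcf12 has its lowest values on the right at 63.2 and 62.9 CPM, and Id2 lies higher in suffix 2 in each gate.

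The levels were also read without gates, with the tagged cells of each suffix ranked by 1 tag and cut into 5 equal bins of 299 or 300 cells in suffix 1 and 497 or 498 in suffix 2. These are the cells and tags that set the gates, so the bins describe the same pattern and are no separate support for it. From the lowest to the highest CD150 bin, Tcf3 went from 97.9 through 91.2, 89.8 and 86.3 to 73.9 CPM in suffix 1 and from 84.5 through 90.4, 80.4 and 68.5 to 56.3 CPM in suffix 2. Tcf4 went from 239 through 213, 188 and 156 to 147 CPM in suffix 1, a decline over the whole range, and from 182 through 180, 149 and 142 to 146 CPM in suffix 2, where it levelled off. Tcf12 increased at each step in both libraries, from 59 through 61.1, 65.5 and 69.6 to 78 CPM and from 58.8 through 61.5, 65.5 and 71.4 to 76.2 CPM. Along the CD48 tag the directions were opposite. Tcf3 went from 72 to 96.5 CPM in suffix 1 and from 51.3 to 90.9 CPM in suffix 2, Tcf4 from 161 to 198 and from 142 to 175 CPM, and Tcf12 from 74.7 to 64.4 and from 71 to 55.8 CPM between the lowest and the highest bin.

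**Figure D2:**
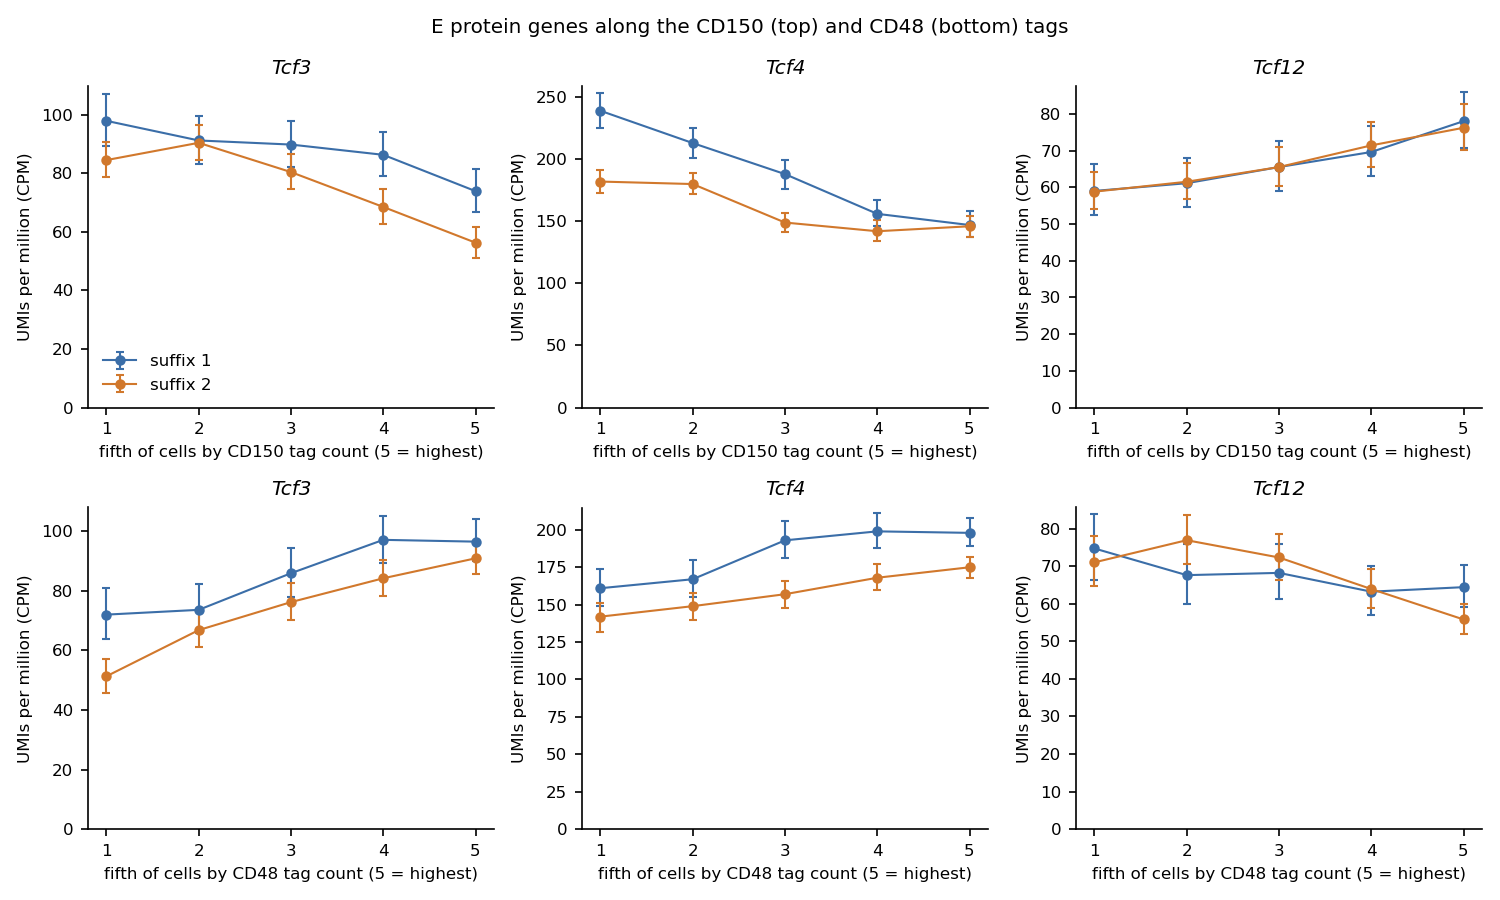
Levels of the 3 E protein genes (y axis, CPM with 95% counting intervals) in 5 equal bins of cells by tag count (x axis, 5 is the highest), for CD150 in the top and CD48 in the bottom panels, in suffix 1 (blue) and suffix 2 (orange). With more CD150, Tcf3 and Tcf4 are lower (73.9 and 56.3 CPM, and 147 and 146 CPM, in the highest bin) and Tcf12 is higher (78 and 76.2 CPM), and the CD48 panels slope the other way.

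Of the 4 members with enough UMIs, 0 were 1.5-fold higher and 0 lower in both suffixes between the CD150-high CD48-low and the CD150-low CD48-high gate, where 9.31% of all 10813 genes were higher and 9.29% lower. The counts were likewise 0 and 0 for the CD150-low CD48-low gate (all genes 6.46% higher and 6.43% lower) and for the CD150-high CD48-high gate (5.08% and 2.38%), each against the CD150-low CD48-high gate. Tcf3 had ratios of 0.822 (0.705 to 0.954) and 0.671 (0.57 to 0.786) in the CD150-low CD48-low gate and 0.872 (0.777 to 0.975) and 0.795 (0.703 to 0.897) in the CD150-high CD48-high gate, and Tcf12 had 1.08 and 1.05, and 1.17 and 1.27. In suffix 1 the direction of Tcf3 turned in the CD150-low CD48-low gate with gates set over both suffixes together (1.07, 20 cells) and in the CD150-high CD48-high gate under 5% mitochondrial UMIs (1.04, 26 cells), and in suffix 2 Tcf4 went from 0.817 to 1.11 in the CD150-low CD48-low gate under 5% (16 cells). The 3 comparisons share the CD150-low CD48-high cells.

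Id2 varied over the gates in different ways in the libraries. In suffix 1 it had 11.1 CPM (7.18 to 16.4, 25 UMIs) in the CD150-high CD48-low gate, 4.75 (2.45 to 8.3, 12 UMIs) in the CD150-low CD48-low gate, 9.45 (6.87 to 12.7, 44 UMIs) in the CD150-high CD48-high gate and 8.84 (7.51 to 10.3, 156 UMIs) in the CD150-low CD48-high gate. In suffix 2 the levels were 34 (29.2 to 39.3, 179 UMIs), 35.4 (28.9 to 43, 102 UMIs), 32.6 (27.5 to 38.4, 145 UMIs) and 19.1 CPM (17.6 to 20.7, 589 UMIs). In suffix 2 the first 3 gates had overlapping intervals and all lay above the CD150-low CD48-high gate, whereas in suffix 1 the interval of each gate overlapped that of the CD150-low CD48-high gate. With under 5% mitochondrial UMIs, which left 16 to 37 cells in these 3 gates, their ratios to the CD150-low CD48-high gate were all under 1, at 0.235, 0.187 and 0.136 in suffix 2 and at 0.942 (4 against 36 UMIs), at most 0.582 (0 against 36) and 0.21 (2 against 36) in suffix 1. Without cells with a proliferation UMI, those in suffix 2 were 2.99, 3.38 and 3.34, and the CD150-high CD48-low gate of suffix 1 was at 0.834. Cells with at least 1 Id2 UMI made up 32.9%, 28%, 41.1% and 13.8% of the gates in suffix 2. With every cell thinned to 9000 UMIs, which removes differences in depth and leaves out 96 and 147 shallower cells, the shares were 24%, 22.3%, 26.9% and 7.46% in suffix 2 and 8.33%, 2.94%, 9.22% and 5.46% in suffix 1. In thinned cells of the CD150-low CD48-high gate the variance of Id2 over its mean was 4.31 in suffix 1 and 11.3 in suffix 2. Its counts there were more uneven over cells than counting error alone, so the intervals of that gate understate the spread.

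Part of the Id2 signal came from 9 cells (3 of suffix 1 and 6 of suffix 2) that had at least 10 UMIs summed over Xcr1, Clec9a and Naaa, a criterion set after values had been seen. All 9 were in the CD150-low CD48-high gate. Their sums of the 3 genes were 19 or more, against 3 at most in any other kept cell. Xcr1, a chemokine receptor, and Clec9a, a receptor for dead cells, are known from conventional dendritic cells of type 1. The 9 cells held 317 Id2 UMIs, 30 of 237 in suffix 1 (12.7%) and 287 of 1020 in suffix 2 (28.1%), with 4 to 67 UMIs per cell and a median of 39. Their Id2 level was 1730 CPM (1540 to 1930) against 13.2 CPM in the other kept cells.

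The same 9 cells were low in E protein transcripts. Tcf4 had 5 UMIs in them, 27.2 CPM (8.84 to 63.5), against 172 CPM in the other cells. Tcf3 had 6 UMIs, 32.7 CPM (12 to 71.1), against 81.1 CPM, and Tcf12 had 3 UMIs, 16.3 CPM (3.37 to 47.7), against 66.5 CPM. Id1, Id3 and Mpo had 0 UMIs in them, and 3 UMIs, the floor used for counts of 0, would be 16.3 CPM. Naaa, Xcr1 and Clec9a, the genes that chose the cells, had 1770, 593 and 256 CPM in them. Other leading genes by fold over the other cells were Plbd1 at 1140 CPM, Cd74, the invariant chain of antigen presentation, at 19800 CPM and Irf8, a transcription factor of dendritic and monocytic cells, at 2520 CPM. Batf3, a transcription factor known from type 1 dendritic cells, had 229 CPM. Of the genes of the sort, Ly6a (Sca-1) had 332 CPM against 314 CPM in other cells and Kit 59.9 against 134 CPM, and the progenitor marker Cd34 had 21.8 against 419 CPM.

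Without these 9 cells, Id2 in the CD150-low CD48-high gate was 7.16 CPM (5.96 to 8.52) in suffix 1 and 9.84 CPM (8.76 to 11) in suffix 2. The ratio of the CD150-high CD48-low to the CD150-low CD48-high gate went from 1.26 (0.788 to 1.92) and 1.78 (1.5 to 2.11) to 1.55 and 3.46, so that Id2 then counted as higher in the CD150-high CD48-low gate. For the CD150-high CD48-high gate the ratios went from 1.07 and 1.71 to 1.32 and 3.32. For the CD150-low CD48-low gate the libraries lay on opposite sides of 1 with and without the 9 cells, at 0.537 (0.272 to 0.965) and 1.86 (1.49 to 2.29) with them and 0.663 and 3.6 without. Of the 9 cells, 2 of suffix 1 and 6 of suffix 2 also had under 5% mitochondrial UMIs. Leaving them out under that filter, an alternative chosen after seeing the data, took the suffix 2 ratios of the CD150-high CD48-low, CD150-low CD48-low and CD150-high CD48-high gates from 0.235, 0.187 and 0.136 to 3.04, 2.43 and 1.77, from 11, 4 and 4 UMIs against 23. In suffix 1 it took the CD150-high CD48-low gate from 0.942 to 1.59 (4 against 21 UMIs), whereas the CD150-high CD48-high gate went from 0.21 to 0.355 (2 against 21 UMIs) and stayed under 1, unlike its 1.07 in all kept cells, and the CD150-low CD48-low gate, with 0 UMIs, was at most 0.985. Every other cell had at most 7 Id2 UMIs but for 1 cell of suffix 2, chosen after its value was seen, in the CD150-low CD48-high gate with 21. That cell had 13636 UMIs in all. Of 6 markers of innate lymphoid and natural killer cells it had 14 UMIs of Nkg7, 6 of Il2rb, 1 each of Klrb1c and Gata3 and 0 of Il1rl1 and Rora. Nkg7 was common in other cells too, at 202 CPM in that gate. Il2rb was rare, at 0.126 CPM over all kept cells but the 9, this cell included. The cell had 0 UMIs of Tcf3, 1 of Tcf4 and 1 of Tcf12.

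**Figure D3:**
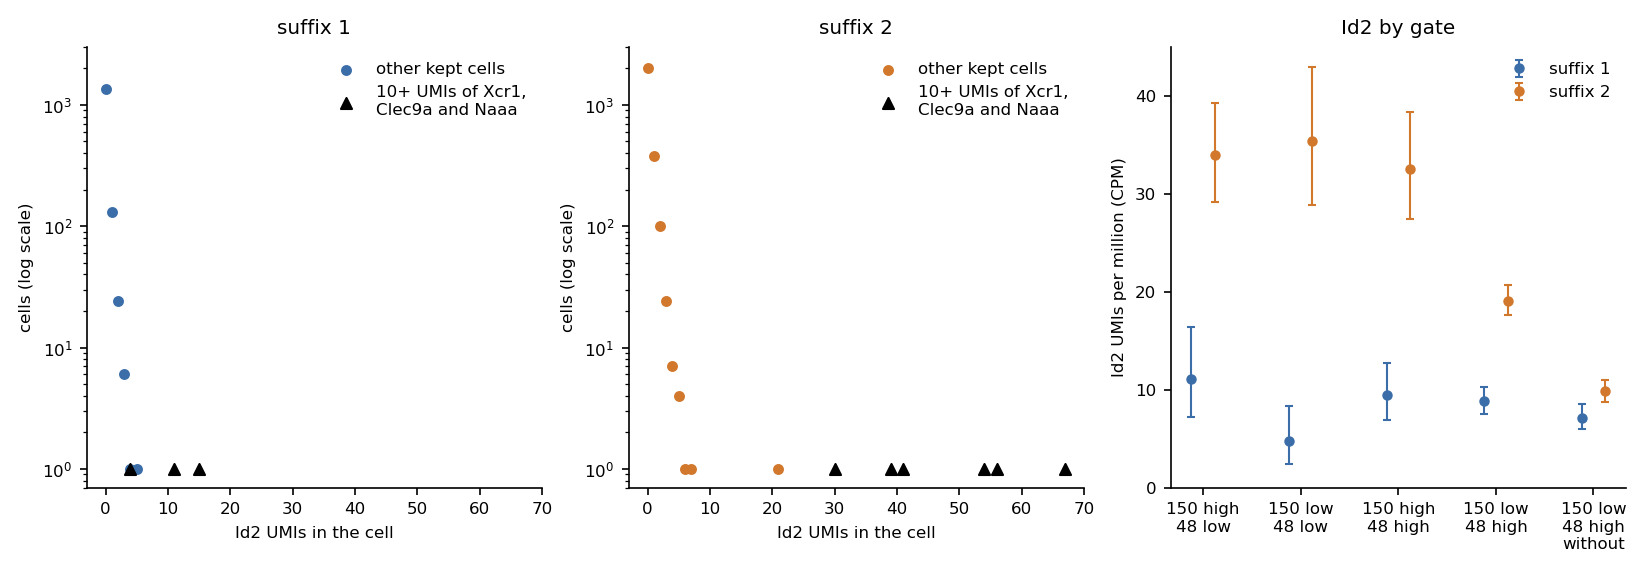
Number of kept cells (y axis, log scale) by their Id2 UMIs (x axis) in suffix 1 (left) and suffix 2 (middle), with cells that have 10 or more UMIs summed over Xcr1, Clec9a and Naaa as triangles, and the Id2 level by gate (right, CPM with 95% counting intervals, the last position without those cells). The triangles reach 67 UMIs where all but 1 of the other cells stay at 7 or fewer, and the last gate falls from 19.1 to 9.84 CPM in suffix 2 once they are left out.

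Between libraries, Id2 was the only one of the 4 members that was 1.5-fold different in all 4 gates, against 1.65% of all genes higher and 0.61% lower in suffix 2. Its ratio of suffix 2 to suffix 1 was 3.06 (2.01 to 4.86) in the CD150-high CD48-low gate, 7.46 (4.09 to 14.9) in the CD150-low CD48-low gate, 3.45 (2.45 to 4.95) in the CD150-high CD48-high gate and 2.16 (1.81 to 2.59) in the CD150-low CD48-high gate. In the last gate it was 1.37 without the 9 cells and 0.922 without cells with a proliferation UMI, so there the difference did not persist at 1.5-fold. Under 5% mitochondrial UMIs it was 1.48 in the CD150-high CD48-low gate (11 against 4 UMIs), also under 1.5-fold, at least 1.91 in the CD150-low CD48-low gate (4 against 0 UMIs), 3.85 in the CD150-high CD48-high gate (4 against 2 UMIs) and 5.92 in the last. With gates set over both suffixes together it was 2.07 in the CD150-low CD48-low gate (98 against 3 UMIs), and with gates at the 90th and 10th percentiles it was 11.7 there. As a gauge of RNA carried between droplets, Igkc, an antibody light chain gene that LSK cells should lack, had a UMI in 3.22% of kept cells of suffix 1 and 65.2% of suffix 2, with 2 and 10 cells rich in immunoglobulin UMIs and median depths of 15024 and 14766. The part of such RNA in the Id2 difference was not tested. In suffix 2, Igkc was found in 59.8%, 60.8%, 66.4% and 67.5% of the cells of the 4 gates, in the order above.

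Tcf3 was lower in suffix 2 in each gate, with ratios of 0.762 (0.623 to 0.936), 0.742 (0.599 to 0.918), 0.829 (0.71 to 0.967) and 0.908 (0.854 to 0.967) in the order of gates used above, all under 1.5-fold. In the CD150-high CD48-high gate it was 1.06 with cells thinned, and with gates set over both suffixes together the CD150-high CD48-low and CD150-high CD48-high gates had 1.1 and 1.06, so the direction of Tcf3 turned there. Under 5% mitochondrial UMIs the first 3 gates (18, 16 and 17 cells in the smaller library) were at 0.468, 0.556 and 0.625, and with gates at the 90th and 10th percentiles the CD150-low CD48-low gate was at 0.518, all past 1.5-fold. Tcf4 had ratios of 0.976, 0.816, 0.984 and 0.817, and Tcf12 of 0.935, 0.974, 1.08 and 0.995. In the CD150-low CD48-low gate these were 1.14 and 1.69 with gates set over both suffixes together (36 and 11 UMIs in 20 cells of suffix 1), and 1.04 and 1.51 under 5% mitochondrial UMIs (16 cells), so both directions turned there. Tcf4 also turned in the CD150-high CD48-low gate, to 1.06 with median of ratios scaling, and in the CD150-high CD48-high gate, to 1.38 under 5%. Tcf12 turned in the CD150-high CD48-low gate, to 1.13 under 5%, and in the CD150-low CD48-high gate, to 1.06 without cells with a proliferation UMI. In the CD150-high CD48-high gate Tcf12 went to 0.848 with gates at the 90th and 10th percentiles. Whether any of these differences goes with age cannot be told apart from the libraries, whose ages are not assigned.

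Id1 had its highest level in the CD150-high CD48-low gate, at 4.88 CPM (2.44 to 8.74) from 11 UMIs in suffix 1 and 7.59 CPM (5.43 to 10.3) from 40 UMIs in suffix 2. In the CD150-low CD48-high gate it had 0.737 CPM (0.392 to 1.26) from 13 UMIs and 2.14 CPM (1.65 to 2.72) from 66 UMIs. The ratio of these gates was 6.63 (2.69 to 16) and 3.55 (2.33 to 5.34), and both intervals lay above 1. It moved with the alternatives, up to 12.4 in suffix 1 with gates at the 90th and 10th percentiles and 5.63 in suffix 2 without cells with a proliferation UMI. With under 5% mitochondrial UMIs the ratio in suffix 2 was 0.551, from 1 UMI in 37 cells against 12 UMIs in 142 cells, so the direction turned there, and suffix 1 had 0 UMIs in 18 cells against 2 in 102. The other gates held few UMIs, 1 and 4 in the CD150-low CD48-low gate (0.396 and 1.39 CPM) and 3 and 17 in the CD150-high CD48-high gate (0.645 and 3.82 CPM). Between the libraries the ratio of suffix 2 to suffix 1 was 1.56 (0.783 to 3.36) in the CD150-high CD48-low gate, an interval that holds 1 (0.747 from 3 UMIs in suffix 1 with gates set over both suffixes together), and 2.9 (1.59 to 5.74) in the CD150-low CD48-high gate. Id3 had 0 UMIs in the CD150-high CD48-low and CD150-low CD48-low gates of both libraries, where the floor of 3 UMIs is at 1.33 and 0.57 CPM in the first and 1.19 and 1.04 CPM in the second. Its 15 UMIs fell on 2 and 1 in the CD150-high CD48-high gate and 3 and 9 in the CD150-low CD48-high gate, so that its transcripts were near the limit of detection at this depth.

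The cells were next divided by the transcript of Dntt, the terminal transferase of early lymphoid cells, and of Mpo, the myeloperoxidase of granulocyte and monocyte progenitors. Cells with 3 or more Dntt UMIs numbered 379 in suffix 1 and 335 in suffix 2, and those with 0 numbered 968 and 1972. Cells with 10 or more Mpo UMIs numbered 55 and 207, and those with 0 numbered 1133 and 1800. These classes differ in depth, with median depths of 21223 and 22201 UMIs at 3 or more Dntt UMIs against 13972 and 13946 at 0, and 30887 and 30103 at 10 or more Mpo UMIs against 13977 and 13607 at 0. The gates differ in their share of them as well, from 0% of the CD150-high CD48-low gate to 38.7% and 20.6% of the CD150-low CD48-high gate for Dntt and to 5.59% and 12.6% for Mpo.

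Tcf4 was highest in the cells with most Dntt, and it was the 1 member of 4 past 1.5-fold in both libraries, against 4.65% of all genes higher and 10.4% lower. Its level was 156 CPM at 0 Dntt UMIs, 184 at 1 to 2 and 243 (233 to 254) at 3 or more in suffix 1, and 144, 147 and 236 CPM (226 to 247) in suffix 2. The ratio of the highest to the lowest class was 1.56 (1.47 to 1.66) and 1.64 (1.55 to 1.73), above that of 95.3% and 94.6% of the genes tested. Within the CD150-low CD48-high gate it was 1.48 and 1.64, just under 1.5-fold in suffix 1, with the class set at 1 or more Dntt UMIs it was 1.46 and 1.4, under 1.5-fold in both, and with all cells thinned it was 1.59 and 1.69. After thinning, 85.3% and 82.5% of the cells with 3 or more Dntt UMIs had a Tcf4 UMI against 71.6% and 71.5% of those with 0. The markers of plasmacytoid dendritic cells, the type in which Tcf4 is best known, summed to 12.5 and 15.6 CPM over all kept cells, and no cell had more than 1 UMI of the defining marker Siglech.

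Tcf3 was also higher in the Dntt class, by less. It had 78.4, 78 and 107 CPM (100 to 114) over the 3 classes in suffix 1 and 70.3, 89.3 and 95.8 CPM (89.1 to 103) in suffix 2. The ratio of 3 or more to 0 was 1.36 (1.25 to 1.48) in both libraries. Tcf12 was lower, with 70.2, 71.6 and 58.2 CPM in suffix 1, 69.9, 59.2 and 57 CPM in suffix 2, and ratios of 0.829 (0.744 to 0.922) and 0.816 (0.736 to 0.903). Id2 had 9.14 CPM at 0 Dntt UMIs and 7.94 at 3 or more in suffix 1, a ratio of 0.868 (0.641 to 1.17) whose interval holds 1. In suffix 2 it had 29 and 8.73 CPM, a ratio of 0.301 (0.233 to 0.385). Without the 9 cells rich in Xcr1, Clec9a and Naaa, the ratios of Id2 were 1.07 and 0.44, and under 5% mitochondrial UMIs that of suffix 2 was 0.109. Id1 had 21 and 103 UMIs at 0 Dntt UMIs and 7 and 9 at 3 or more, with ratios of 0.583 (0.209 to 1.42) and 0.339 (0.151 to 0.669), the latter 1.15 under 5% mitochondrial UMIs (4 against 7 UMIs).

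Along Mpo, Id2 was the member that stood lower, 1 of 4 where 14.5% of all genes were lower and 5.98% higher. It had 10.4 and 33.1 CPM at 0 Mpo UMIs, 5.82 and 9.2 CPM at 1 to 9, and 2.37 and 5.74 CPM at 10 or more, in suffixes 1 and 2. The ratio was 0.227 (0.0613 to 0.592) from 4 UMIs in 55 cells and 0.174 (0.121 to 0.242) from 36 UMIs in 207 cells, and it was 0.27 and 0.256 without the 9 cells. Under 5% mitochondrial UMIs it was 0.107 (1 UMI) and 0.0334 (9 UMIs), and without cells with a proliferation UMI it was 0.367 in suffix 2 (4 UMIs in 22 cells), while suffix 1 gave no value (5 cells). With the Mpo classes set on cells thinned to 9000 UMIs, the upper class of suffix 1 held 11 cells with 0 Id2 UMIs, a ratio of at most 0.995 when set against 3 UMIs, and suffix 2 had 0.154 from 11 UMIs in 76 cells, so Id2 then did not count as past 1.5-fold lower in both libraries. With classes set at full depth, the order of the 3 classes was the same in both libraries. Thinned cells with 10 or more Mpo UMIs had Id2 in 0% of cases in suffix 1 (exact binomial 95% upper limit 6.49%, 55 cells) and 5.31% in suffix 2, against 6.92% and 15.9% of those with 0.

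In all kept cells the ratios of the E protein genes along Mpo were under 1.5-fold. Tcf4 had 184, 197 and 180 CPM in suffix 1 and 157, 181 and 143 CPM in suffix 2 over the 3 Mpo classes, highest in the middle, with ratios of 0.98 (0.868 to 1.1) and 0.906 (0.842 to 0.974) between the outer classes, the latter 1.01 with median of ratios scaling and 1.23 without cells with a proliferation UMI (22 cells), and the former 0.555 with classes set on thinned cells (31 UMIs in 11 cells). Tcf3 had 82.9, 99.3 and 81.9 CPM in suffix 1 and 67.8, 90 and 93.3 CPM in suffix 2. Its ratio was 0.988 (0.824 to 1.18) in the first library, 0.54 without cells with a proliferation UMI (4 UMIs in 5 cells), and 1.38 (1.25 to 1.51) in the second. Tcf12 declined over the classes, from 68.3 through 63.9 to 59.3 CPM and from 71.1 through 61.8 to 54.1 CPM, and its ratio was 0.868 (0.701 to 1.07) and 0.761 (0.676 to 0.854). Without cells with a proliferation UMI the ratio of Tcf12 in suffix 1 was 1.03, so its direction turned there. With the class set at 30 or more Mpo UMIs that in suffix 2 was 0.651, past 1.5-fold. Id1 had 3 and 27 UMIs in the highest Mpo class, 1.78 and 4.31 CPM, and ratios of 1.34 (0.259 to 4.42) and 1.34 (0.833 to 2.08) to the class without Mpo. These were 5.77 (2 UMIs) and 2.38 with classes set on thinned cells and 2.07 and 2.33 within the CD150-low CD48-high gate. In suffix 2 the ratio was 3.4 under 5% mitochondrial UMIs (9 against 3 UMIs) and 0.745 without cells with a proliferation UMI (1 UMI), so its direction turned there.

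**Figure D4:**
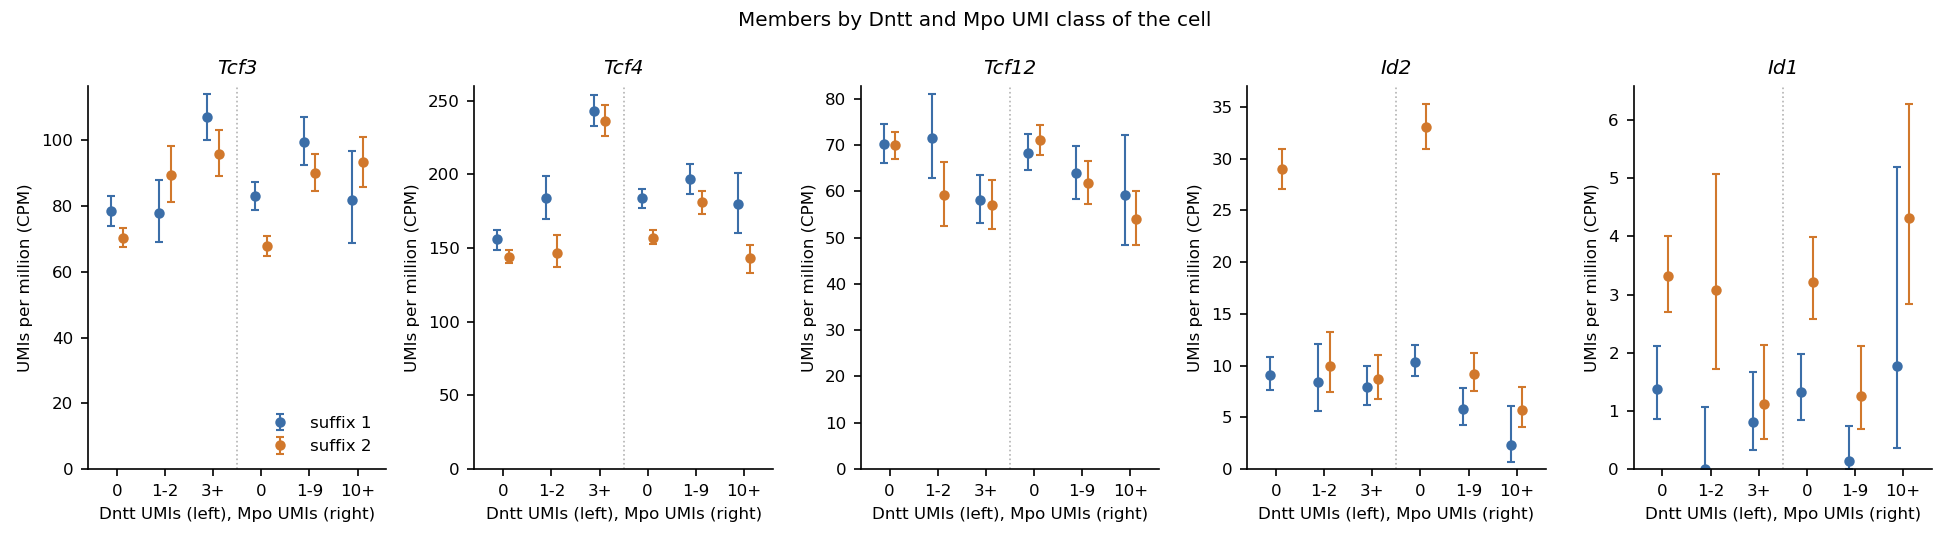
Level of 5 members (y axis, CPM with 95% counting intervals, each panel from 0) by the Dntt UMIs of the cell (x axis, left of the dotted line) and by its Mpo UMIs (right of it), in suffix 1 (blue) and suffix 2 (orange). Tcf4 reaches 243 and 236 CPM at 3 or more Dntt UMIs, Tcf12 is lowest in the highest class of either gene (58.2 and 57 CPM for Dntt), and Id2 in suffix 2 is at 33.1 CPM without Mpo and 5.74 CPM at 10 or more Mpo UMIs.

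Both transcripts were found together in 29 cells of suffix 1 and 69 of suffix 2, at 3 or more Dntt and 10 or more Mpo UMIs, so the 2 genes were also read against each other. Cells with 3 or more Dntt and under 10 Mpo UMIs (350 and 266 cells, Dntt-only) were compared with cells with 10 or more Mpo and 0 Dntt UMIs (18 and 88 cells, Mpo-only). Tcf4 was higher in the Dntt-only cells, the 1 member of 4 past 1.5-fold in both libraries, with 6.04% of all genes higher and 2.45% lower. It had 248 and 255 CPM in the Dntt-only and 137 and 113 CPM in the Mpo-only cells, a ratio of 1.81 (1.43 to 2.33) and 2.26 (1.99 to 2.57), and cells with both transcripts lay between, at 207 and 187 CPM. Without cells with a proliferation UMI, which left 1 and 9 Mpo-only cells, the ratio in suffix 2 was 1.34, and Tcf4 was no longer past 1.5-fold in both libraries. Under 5% mitochondrial UMIs, a filter that leaves small groups, the ratio of Tcf4 in suffix 1 was 3.02. Tcf3 had ratios of 1.67 (1.18 to 2.42) and 1.09 (0.936 to 1.28), and the second interval holds 1. Tcf12 had 1.04 and 1.13. Id2 had 65 UMIs in the Dntt-only and 0 in the Mpo-only cells of suffix 1, at least 1.47-fold higher when set against 3 UMIs, and 50 against 8 UMIs in suffix 2, a ratio of 2.82 (1.32 to 6.88) that was 7.91 with classes set on thinned cells (50 against 2 UMIs) and 0.409 without cells with a proliferation UMI (11 against 3 UMIs, 9 cells in the smaller class). Id1 had 5 against 1 UMIs in suffix 1, a ratio of 0.339 (0.0379 to 16) whose interval holds 1. In suffix 2 it had 3 against 12 UMIs, a ratio of 0.113 (0.0204 to 0.417), the opposite direction to the 2.82 of Id2.

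**Figure D5:**
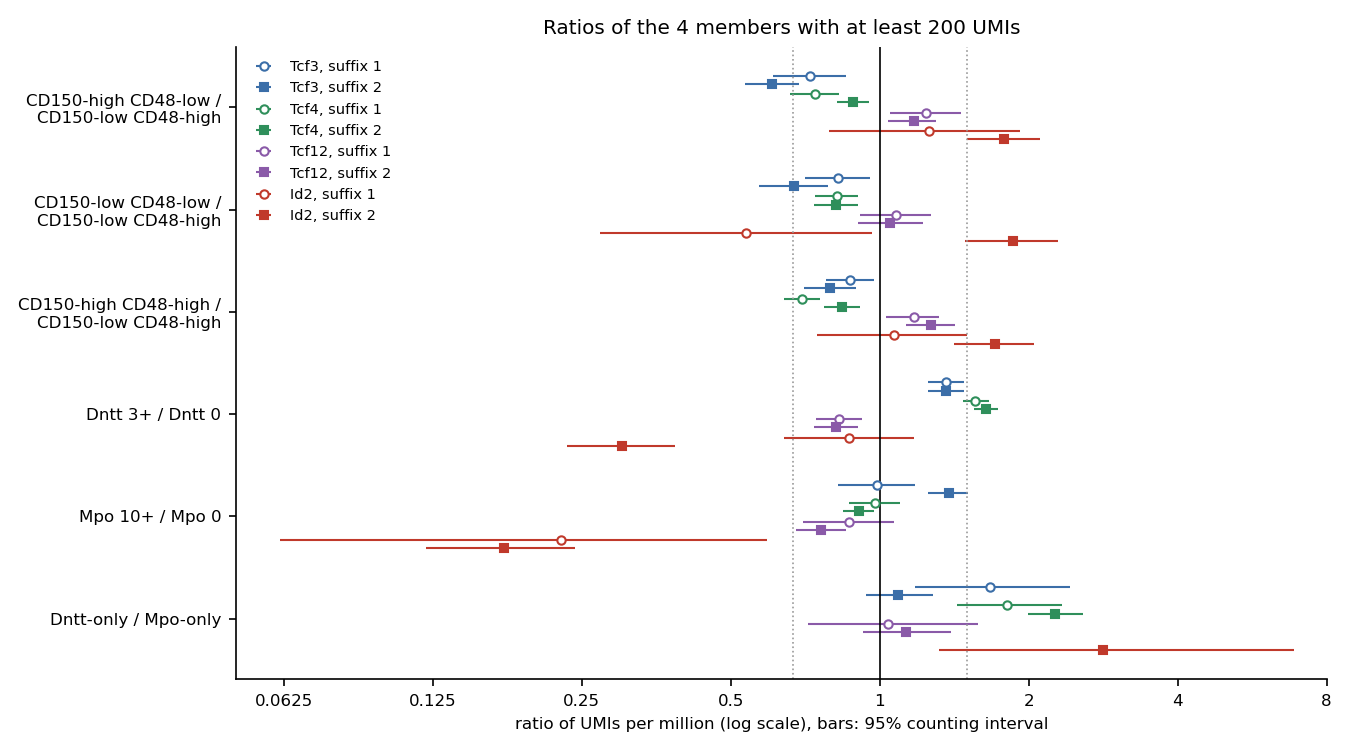
Ratio of levels (x axis, log scale, with 95% counting intervals) for the 4 members with at least 200 UMIs in 6 comparisons (y axis), suffix 1 as open circles and suffix 2 as filled squares. Dotted lines mark 1.5-fold; Tcf4 is past it in both suffixes for Dntt (1.56 and 1.64) and for Dntt-only over Mpo-only cells (1.81 and 2.26), Id2 for Mpo (0.227 and 0.174), and suffix 1 has no point for Id2 in the last comparison, where the Mpo-only cells had 0 UMIs.

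Rank correlations between members in single cells were smallest in the gate with most cells. In the thinned CD150-low CD48-high cells (879 of suffix 1 and 1556 of suffix 2), Spearman's rho was 0.00333 and -0.0681 between Tcf3 and Tcf4, 0.0539 and 0.0118 between Tcf3 and Tcf12, 0.0328 and -0.00191 between Tcf4 and Tcf12, and 0.0226 and -0.027 between Id2 and Tcf4. Across cells these values share library and depth and are sparse, so they are a description only. Over all pairs of members they ran from -0.0681 to 0.0539 in this gate, from -0.136 to 0.302 in the CD150-high CD48-low, from -0.108 to 0.2 in the CD150-low CD48-low and from -0.108 to 0.217 in the CD150-high CD48-high gate. The highest, 0.302 between Id1 and Id2 in suffix 1, rested on 3 cells with both transcripts among 156. All 3 E protein genes were detected in 18% and 16.5% of the thinned CD150-low CD48-high cells, and none of the 3 in 6.26% and 6.11%. Over the 8 groups of 4 gates in 2 suffixes, with the mean of each suffix removed from log2 levels (10 CPM added), Pearson's r was 0.623 between Tcf3 and Tcf4, -0.554 between Tcf3 and Tcf12 and -0.719 between Tcf4 and Tcf12. Id2 had r of -0.657 with Tcf3, and Id1 had 0.652 with Tcf12 and 0.453 with Id2. The 8 groups share 2 libraries.

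The genes whose pattern over these 8 groups was most like that of each member were ranked by the same r among 7502 genes with at least 1000 UMIs. For Tcf3 they were Pno1 (0.994), Mcmbp (0.993) and Lta4h (0.993), and for Tcf4 they were Dhrs3 (0.967), Cep164 (0.951) and Notch1 (0.946). For Tcf12 they were Sh3glb1 (0.981), Smim8 (0.965) and Prkag2 (0.964), and for Id2 Praf2 (0.973), Rc3h2 (0.958) and Gpd2 (0.958). With 1 in place of 10 CPM added, 0 of the 3 genes named for Id2 stayed among its first 3. For Id1, among 7503 genes, Ube2q2 (0.973), Zfc3h1 (0.972) and Mrpl23 (0.97) came first, and for Id3, whose 15 UMIs give little weight to the ranking, Copa (0.992), Eif5b (0.982) and Phf10 (0.974). All of these rest on 8 points that share 2 libraries.

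Among 12 partners and cofactors of E proteins, of which 10 had at least 200 UMIs, 2 were higher and 0 lower in the CD150-high CD48-low than in the CD150-low CD48-high gate, where 9.31% of all genes tested were higher and 9.29% lower, with a median log2 ratio of 0.30 against -0.04 over all genes. These were Gata2, a zinc finger factor of stem cells that acts in complexes with E proteins, and Runx1t1, a corepressor that E proteins can recruit. Gata2 had 134 against 42.3 CPM in suffix 1, a ratio of 3.17 (2.76 to 3.62), and 222 against 75.5 CPM in suffix 2, a ratio of 2.94 (2.74 to 3.15). Runx1t1 had 13.8 against 0.227 CPM and 32.1 against 2.3 CPM, ratios of 60.7 (21.5 to 237) and 13.9 (10.5 to 18.7). Both were also higher in the other CD150-high or CD48-low gates, where 2 partners were higher in the CD150-low CD48-low gate (all genes 6.46%) and 3 in the CD150-high CD48-high gate (all genes 5.08%), the latter with Tal1, an E protein partner of blood stem cells, at 1.66 and 1.59. In the Dntt class 3 of 10 partners were lower and 0 higher (all genes 10.4% and 4.65%), with Runx1t1 at 0.025 and 0.0302, Gata2 at 0.262 (0.226 to 0.303) and 0.172 (0.148 to 0.199) and Tal1 at 0.588 and 0.462, and a median of -0.33 against -0.05. In the Mpo class 2 were lower (all genes 14.5%), Gata2 at 0.491 and 0.294 and Runx1t1 with 0 UMIs in suffix 1 and a ratio of 0.0231 in suffix 2, and between Dntt-only and Mpo-only cells Gata2 was lower at 0.331 and 0.427 (all genes 2.45%).

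Of 17 BMP and TGF-beta receptors, SMADs and Egr1, 15 had at least 200 UMIs. Id1 is a known target of BMP and TGF-beta signalling. The list also holds the inhibitory SMADs Smad6 and Smad7, so a count or median over it is no measure of that signalling. In the CD150-high CD48-low gate 3 were higher and 0 lower, beside 9.31% and 9.29% of all genes, with a median log2 ratio of 0.22 against -0.04. Eng, a co-receptor, had 127 against 70.1 CPM in suffix 1, a ratio of 1.81 (1.59 to 2.06), and 143 against 70.2 CPM in suffix 2, a ratio of 2.03 (1.87 to 2.21). Bmpr2, the type II BMP receptor, had ratios of 1.68 (1.28 to 2.16) and 1.72 (1.45 to 2.04), and Bmpr1a 1.81 (0.608 to 4.49) and 2.17 (1.74 to 2.69), with an interval in suffix 1 that holds 1. In the CD150-low CD48-low gate 2 were higher (all genes 6.46%), Eng at 1.66 and 1.76 and Bmpr2 at 1.64 and 1.62, and in the CD150-high CD48-high gate 0 were higher or lower (all genes 5.08% and 2.38%). In the Dntt class 1 was higher (all genes 4.65%), Smad7, at 1.74 (1.57 to 1.92) and 1.52 (1.38 to 1.67), and 3, Bmpr1a, Eng and Bmpr2, were lower (all genes 10.4%). In the Mpo class 7 of 15 were lower and 0 higher (all genes 14.5% and 5.98%), with a median of -0.60 against -0.12 over all genes, among them Egr1 at 0.488 and 0.269 and Smad7 at 0.558 and 0.45. Smad7 had ratios of 8.05 (3.68 to 22) and 4.64 (3.46 to 6.36) between Dntt-only and Mpo-only cells, where 2 of 15 were higher (all genes 6.04%).

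Of 16 early lymphoid genes, 9 had at least 200 UMIs, and Dntt itself was left out where it set the class. In the CD150-high CD48-low gate 5 of 9 were lower and 1 higher, beside 9.29% and 9.31% of all genes, with a median log2 ratio of -0.99 against -0.04. Flt3, a cytokine receptor of multipotent and lymphoid progenitors, had 13.3 against 255 CPM in suffix 1 and 2.09 against 145 CPM in suffix 2, and Foxo1, a forkhead factor, was higher at 2.55 (1.77 to 3.61) and 3.72 (3.06 to 4.52). In the CD150-low CD48-low and CD150-high CD48-high gates 4 and 5 of 9 were lower (all genes 6.43% and 2.38%) and 1, Foxo1, was higher (all genes 6.46% and 5.08%). In the Dntt class 4 of 8 were higher and 1 lower (all genes 4.65% and 10.4%), with a median of 0.53 against -0.05, and Notch1, the receptor of T lineage entry, was at 2.66 (2.35 to 3.01) and 3.11 (2.77 to 3.5) and Flt3 at 3.32 and 6.42. Between Dntt-only and Mpo-only cells 5 of 8 were higher and 0 lower (all genes 6.04% and 2.45%), with Flt3 at 5.59 and 3.38 and Notch1 at 5.59 and 3.55, beside Tcf4 at 1.81 and 2.26. In the Mpo class 1 of 9 was higher, Dntt, and 1 lower, Foxo1 (all genes 5.98% and 14.5%).

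Between the libraries, 2 of 10 partners were higher in suffix 2 in all 4 gates (all genes 1.65%), Gata2 at 1.65, 1.93, 1.62 and 1.78 and Runx1t1 at 2.33, 4.52, 3.88 and 10.2. Of the 15 BMP and TGF-beta genes 1 was, Bmpr1a, at 8.48, 10.5, 10.7 and 7.06. Of the 9 lymphoid genes 1 was lower (all genes 0.61%), Flt3, at 0.157, 0.115, 0.337 and 0.568. The gates are given in the order used for Tcf3.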

How the data were processed

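CITE-Seq libraries were prepared by the authors with the Chromium Single Cell 3′ kit v3. The deposited counts are UMI counts per gene and cell, made by the authors with Cell Ranger 3.1.0 (submitters' processing notes, builds mm10 and GRCm38) and combined over both libraries by its aggregation step, which per the methods normalized the libraries, so the depths are those after it. The tag table was deposited by the authors on a log10 scale after counting with CITE-seq-Count, and 100% of them gave whole numbers when raised back (tolerance 1e-06). The cell filter of the methods (under 10% mitochondrial UMIs, over 1500 genes) was applied here to the 4688 cells and left 4068.

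UMIs were summed per group and suffix with Python 3.11.15, numpy 2.4.6, scipy 1.17.1 and pandas 2.3.3. Scrublet in scanpy 1.11.5 (expected rate 0.06) called 5 and 32 cells as doublets, and these were kept. Thinning to 9000 UMIs used seed 1. A group at 0 UMIs was set to a floor of 3 UMIs, and a bound on the wrong side of 1 gave no value. The procedure was tested on simulated data.

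Members and gene lists were chosen with earlier results of these data known. Named were all 6 members, Id4, the 3 genes most like each member, and at most the 3 largest ratios per direction in each list. Cell type and sort markers, Igkc, and the leading genes and markers of the cells high in Id2 are named outside this rule, as checks or after their values were seen. Alternatives covered scaling, depth, cell filter, doublets, cycling and immunoglobulin-rich cells, gates, classes, fold, UMI minimum, weight per cell and each library alone. Upstream windows are from RefSeq (4 of 6 members matched, 6 windows), and the second and the most downstream window of Tcf12 are not shown. Those windows of Tcf12 held 1 and 0 E-boxes. The sample labels gave the ages, but no suffix was tied to them.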

Additional observations from a re-analysis of the deposited data

Results flagged for a closer look

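The level of Id2 in the CD150-low CD48-low gate relative to the CD150-low CD48-high gate lay on opposite sides of 1 in the libraries, at 0.537 (0.272 to 0.965, 12 against 156 UMIs) in suffix 1 and 1.86 (1.49 to 2.29, 102 against 589 UMIs) in suffix 2. It was singled out because neither counting interval holds 1. The difference between the libraries was not tested, since each is 1 library and no suffix is tied to an age. Without the 9 cells rich in Xcr1, Clec9a and Naaa the values were 0.663 and 3.6. With gates set over both suffixes together the value in suffix 1 was 1.33 (3 UMIs in 20 cells), and with under 5% mitochondrial UMIs that in suffix 2 was 0.187 (4 UMIs in 16 cells).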

How the results depend on the processing

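Of the counts of members past 1.5-fold, 178 under an alternative equalled the reported one and 28 did not. Of the ratios of single members, 919 stayed within the counting interval of the reported value and 140 did not. Both the 919 and the full 1059 hold ratios that their alternative cannot change. These are the ones with a 2-fold call (80) and with suffix 1 or suffix 2 alone (30 and 30). Among all 1059, 70 lay on the other side of 1 from the reported value, 39 of them outside its interval, most with under 5% mitochondrial UMIs (14, and 6 more without the 9 cells as well) or gates set over both suffixes together (10). Ratios of Id1, which is under the UMI minimum for a call, crossed 1 in both directions. Of the called values of the other 4 members, 1 crossed 1, Id2 between suffixes in the CD150-low CD48-high gate, at 0.922 without cycling cells. For the CD150-high CD48-low gate, where 0 members were past the fold, 1 was higher (Id2) and 1 lower (Tcf3) in suffix 2 alone or with gates set over both suffixes, 1 was lower (Tcf3) with the 90th and 10th percentiles, and 1 was higher (Id2) without the 9 cells, also under 5% mitochondrial UMIs, alternatives chosen after seeing the data. For the CD150-low CD48-low gate 1 was lower (Id2) under 5% mitochondrial UMIs or in suffix 1 alone and 1 higher (Id2) in suffix 2 alone, and for the CD150-high CD48-high gate 1 was lower (Id2) under 5% and 1 higher (Id2) in suffix 2 alone. For Dntt, 0 were higher at 2-fold, with 1 or more Dntt UMIs or within the CD150-low CD48-high gate, and 1 was lower (Id2) under 5% or in suffix 2 alone. For Mpo, 0 were lower without cycling cells (5 cells in the smallest group) or with classes set on thinned cells (11 cells). For Dntt-only over Mpo-only cells, 0 were higher at 2-fold or without cycling cells, and 2 were higher with median of ratios scaling, with 1 or more Dntt UMIs or in suffix 2 alone (Id2 and Tcf4) and in suffix 1 alone (Tcf3 and Tcf4). Between suffixes, 0 were higher under 5%, without cycling cells or without the 9 cells. The strict filter left 175 and 218 cells, so its groups are small. Without the UMI minimum (19352 genes), genes higher numbered 1734 in place of 1007, 1193 in place of 699 and 1040 in place of 549 in the order of gates, with 471 in place of 257 lower in the last, 775 in place of 503 higher and 1991 in place of 1120 lower for Dntt, and 300 in place of 178 higher between suffixes. As shares of the genes tested these changed little. Those higher in the gates were 8.96%, 6.16% and 5.37% in place of 9.31%, 6.46% and 5.08%. Those lower in the last gate were 2.43% in place of 2.38%. For Dntt they were 4% in place of 4.65% and 10.3% in place of 10.4%, and between suffixes 1.55% in place of 1.65%. Of the 12 genes named as most like the 4 members, 8 were named again with an offset of 1. The cause of these changes was not tested. No paired analysis was possible because each age group is 1 library.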

Other observations

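The CLCA3A1 tag, read through an antibody against PE, gave the same order as CD150 when cells of each suffix were cut into 5 bins by it. From the lowest to the highest bin, Tcf3 went from 98.8 to 80.9 CPM in suffix 1 and from 84.1 to 59 CPM in suffix 2, Tcf4 from 225 to 164 and from 192 to 149 CPM, and Tcf12 from 61.7 to 75.8 and from 53.5 to 75.7 CPM. Id2 went from 5.85 to 12.2 and from 14.5 to 32.6 CPM.

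Id4, the fourth ID gene, was found as 10 UMIs. In the tag gates these were 0 and 3 in the CD150-high CD48-low gate, 0 and 0 in the CD150-low CD48-low gate, 1 and 4 in the CD150-high CD48-high gate and 1 and 1 in the CD150-low CD48-high gate, too few for any comparison.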
